A study of Mus musculus with 6 samples.

Results

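The 34 genes described here encode proteins that copy DNA or control entry into S phase, the phase of the cell cycle in which the genome is duplicated. They were chosen by symbol, with earlier results of these data known, and all 34 were found among the 55487 genes of the table. All 34 also passed the filter on low counts that left 13821 genes to be tested. RNA was sequenced from mouse primitive macrophages, the first macrophages of the embryo and the source of microglia. The Ts1Cje cells came from embryonic stem cells of Ts1Cje mice, a Down syndrome model with an extra copy of distal chromosome 16 from just beyond Sod1 to Zbtb21 that is joined to chromosome 12, and the wild-type cells from stem cells of wild-type mice. Both were differentiated for 12 days with M-CSF, IL-3 and SCF together with VEGF, activin A, BMP-4 and FGF2, and each genotype had 3 libraries, numbered as lots in the labels. The design asked why Ts1Cje embryos have fewer microglia, and the labels name no treatment other than the differentiation. What separates one lot from another (a stem cell line, a culture or a library) is not said. P-values here set the genotype difference against the spread of these libraries within each genotype, and that spread may be only technical.

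Replication is prepared in G1, when the origin recognition complex, Cdc6 and Cdt1 load the ring of MCM2 to MCM7 onto DNA, a step called licensing. Late in G1, cyclin E with its kinase and the E2F transcription factors raise the replication genes. In S phase, Cdc45 and the GINS complex turn the loaded ring into a moving helicase. Primase and polymerases then copy the strands behind it, and most of these RNAs fall to low levels in cells that leave the cycle. Embryonic macrophages are known to divide within the tissues they settle.

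The replication genes differed more between libraries than between genotypes. Wild-type replicate 1 was the lowest of the 6 libraries for all 34 genes in CPM (counts scaled to a common library size with TMM factors), while the same library was the lowest for 25.8% of the 13821 genes tested and the highest for 26.1%. With TPM, which are also scaled by gene length, it was the lowest for 33 of 34. Ts1Cje replicate 1 was the highest library for 24 of the 34 genes, against 16% of all genes tested. Wild-type replicate 3 was the highest for 4 genes, Ts1Cje replicate 2 for 5 and Ts1Cje replicate 3 for 1. The median over the 34 genes of log2 CPM minus the gene's own mean over the 6 libraries was 0.59, 0.31 and -0.19 in Ts1Cje replicates 1 to 3 and -1.12, -0.051 and 0.44 in wild-type replicates 1 to 3. From high to low the libraries stood as Ts1Cje 1, wild-type 3, Ts1Cje 2, wild-type 2, Ts1Cje 3 and wild-type 1, so the genotypes alternated. That exact order, read off these genes, was held by 12 of the 34 and by 0.608% of all genes tested. Summed over the 34 genes, the level was 1669.5, 1371 and 924 TPM in Ts1Cje replicates 1 to 3 and 598, 1010.0 and 1466 TPM in wild-type replicates 1 to 3, or 1321 ± 375 TPM in Ts1Cje and 1025 ± 434 TPM in wild-type libraries (SD, n = 3 each). The genotype means of this sum differed by less than the SD within either genotype. In bulk RNA, fewer cycling cells and less of these RNAs per cell cannot be told apart.

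**Figure D1:**
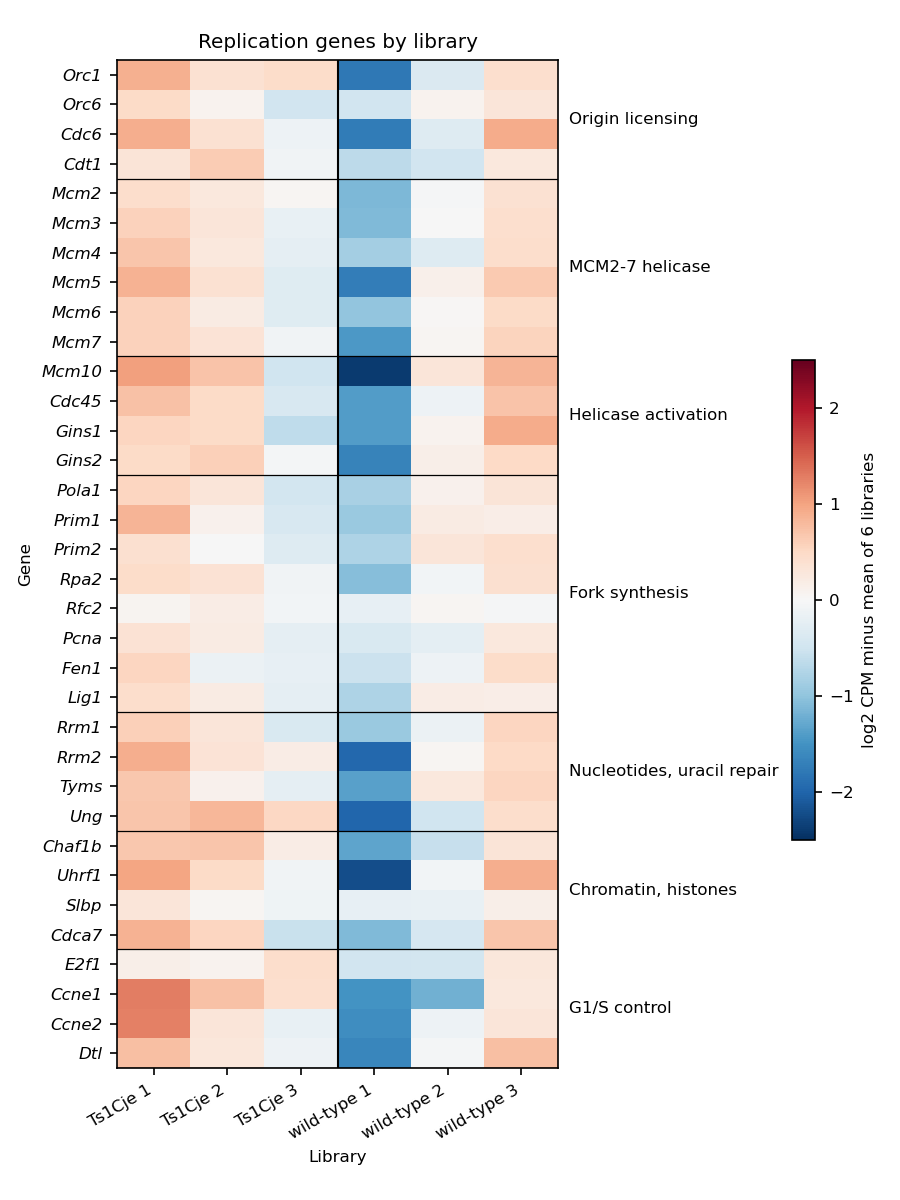
Level of each of the 34 replication genes in each library, as log2 CPM minus the gene's mean over the 6 libraries (colour), with the 3 Ts1Cje libraries left of the 3 wild-type libraries and genes grouped by role. The column of wild-type replicate 1 is the lowest for every gene, from -0.20 for Slbp to -2.40 for Mcm10.

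Total counts were 25484294 to 32658148 per library, and 17586 to 18935 genes had at least 1 count. Wild-type replicate 1 had a total of 25484294, the smallest of the 6, and 18935 genes detected, the most. Macrophage identity was present in every library. All 12 genes of a macrophage marker list were tested, and their summed level was 17257, 23413 and 34201 TPM in Ts1Cje replicates 1 to 3 and 34328, 19654 and 14653 TPM in wild-type replicates 1 to 3, with Lyz2 and Cd68 in the lead. Most of the spread in this sum was Lyz2. Without it the other 11 genes summed to 9620.0, 9025 and 9835 TPM in Ts1Cje replicates 1 to 3 and 11303, 9453 and 9319.9 TPM in wild-type replicates 1 to 3. Most of this smaller sum was Cd68, at 5568 to 6909 TPM, so it says little about the other genes. Wild-type replicate 1 was the highest library for 5 of the 12 genes and the lowest for 1, Itgam. The 5 were Csf1r, Mertk, Cx3cr1, Mpeg1 and Aif1. In that library Csf1r had 1232 TPM, against 538 to 795 TPM in the others, and Mpeg1 had 1584 TPM, against 560 to 1049 TPM. Itgam had 17.1 TPM there, against 31.8 to 69.5 TPM. Blood progenitor genes summed to 1.36 to 4.12 TPM in Ts1Cje and 0.681 to 3.58 TPM in wild-type libraries, with Flt3 at 0 counts in all 6. Pluripotency genes summed to 1.41 to 2.26 TPM in Ts1Cje libraries and were at 0 in wild-type libraries, with Sox2 and Esrrb at 0 in all 6, and Dppa5a made up most of the Ts1Cje sum. The endothelial list summed to 17.5, 14.1 and 8.398 TPM in Ts1Cje replicates 1 to 3 and 3.39, 6.08 and 13.5 TPM in wild-type replicates 1 to 3, mostly Kdr, with Cldn5 at 0 counts in all 6, and it was also lowest in wild-type replicate 1. Erythroid genes summed to 59.3 to 92.1 TPM in Ts1Cje and 66.9 to 114.8 TPM in wild-type libraries, mostly Epor. Mesenchymal genes summed to 4.14 to 28.1 TPM in Ts1Cje and 6.35 to 12.4 TPM in wild-type libraries. The megakaryocyte and mast cell genes summed to 186.9 to 619.6 TPM in Ts1Cje and 138.5 to 771.8 TPM in wild-type libraries, nearly all of it Pf4, which averaged 392 TPM over the 6 libraries. The part of other cell types in the levels of the replication genes was not tested.

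Between the genotypes, 0 of the 34 genes passed the adjusted threshold of 0.05 in edgeR, where 0.00724% of all genes tested did (0.405% with DESeq2), and DESeq2 also called 0. At an unadjusted p under 0.05 there were 2, Ccne1 and Chaf1b, both higher in Ts1Cje, against 5.79% of all genes tested in either direction and 2.99% higher in Ts1Cje. DESeq2 also gave 2, against 7.15% of all genes tested. The log2 fold change of Ts1Cje over wild-type was positive for 33 of 34 genes, with a median of 0.39, while 49.2% of all genes tested were positive, with a median of -0.0075. The values ran from -0.024 for Prim2 to 1.45 for Ccne1. The genotypes were apart, with Ts1Cje above, for 2 genes, Ccne1 and Ung, against 6.38% of all genes tested. They were apart with Ts1Cje below for 0 genes, against 5.72%. The shared direction depended on wild-type replicate 1. Without that library 20 of the 34 genes were positive and the median was 0.033, with 1 gene, Ccne1, at an unadjusted p under 0.05 (4.78% of all genes tested in that fit). Without wild-type replicate 3 all 34 were positive, the median was 0.79 and 9 had an unadjusted p under 0.05, where 16.1% of all genes tested in that fit did. Without Ts1Cje replicate 1 the median was 0.15.

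**Figure D2:**
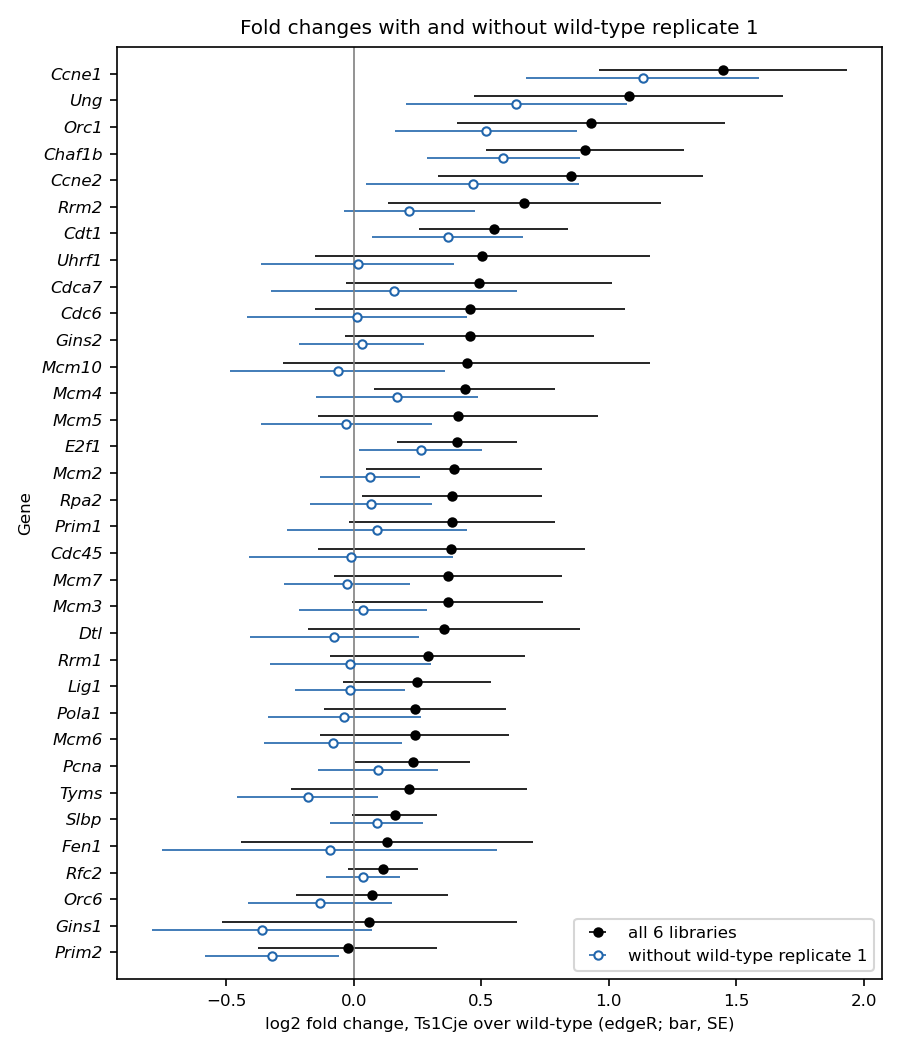
The edgeR log2 fold change of Ts1Cje over wild-type for each gene (points) with its SE (bars), with all 6 libraries (filled) and without wild-type replicate 1 (open). With all libraries 33 of 34 genes lie right of 0, and without wild-type replicate 1 20 of 34 do.

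Promoter sequences are shown for 4 genes, chosen after their values were seen. Mcm6 and Mcm5 carry the most matches to letters that E2F factors are known to bind. Ccne1 and Chaf1b were the genes with the smallest p and carry none. Each sequence runs from 250 bases before to 50 bases after a transcription start in RefSeq, 5′ to 3′ on the strand of the gene, in build GRCm38.p6. Capitals mark matches on either strand to TTTNGCGC, an E2F-like motif, or to CCAAT, the box bound by the factor NF-Y. Matches can overlap, as where TTTNGCGC reads on both strands at the same place. The windows are chr1:128359656-128359955 on the minus strand for Mcm6, chr8:75109259-75109558 on the plus strand for Mcm5, chr7:38107441-38107740 on the minus strand for Ccne1 and chr16:93883651-93883950 on the plus strand for Chaf1b.
Mcm6: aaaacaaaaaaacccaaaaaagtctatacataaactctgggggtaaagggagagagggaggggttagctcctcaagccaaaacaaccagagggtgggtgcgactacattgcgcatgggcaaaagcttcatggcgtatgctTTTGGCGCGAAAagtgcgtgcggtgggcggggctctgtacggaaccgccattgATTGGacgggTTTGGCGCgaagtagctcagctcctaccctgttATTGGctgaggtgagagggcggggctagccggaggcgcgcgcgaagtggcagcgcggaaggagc
Mcm5: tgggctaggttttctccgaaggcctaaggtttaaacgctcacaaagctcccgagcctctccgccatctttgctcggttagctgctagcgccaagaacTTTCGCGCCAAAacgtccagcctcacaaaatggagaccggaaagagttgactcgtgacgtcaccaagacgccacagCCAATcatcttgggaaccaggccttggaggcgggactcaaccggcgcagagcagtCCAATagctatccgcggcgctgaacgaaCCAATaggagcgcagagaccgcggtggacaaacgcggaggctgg
Ccne1: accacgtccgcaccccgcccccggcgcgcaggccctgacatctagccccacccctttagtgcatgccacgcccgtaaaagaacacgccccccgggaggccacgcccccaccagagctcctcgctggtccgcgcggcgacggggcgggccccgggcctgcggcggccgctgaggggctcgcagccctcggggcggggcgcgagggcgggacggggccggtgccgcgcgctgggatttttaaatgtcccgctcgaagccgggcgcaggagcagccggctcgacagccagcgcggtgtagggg
Chaf1b: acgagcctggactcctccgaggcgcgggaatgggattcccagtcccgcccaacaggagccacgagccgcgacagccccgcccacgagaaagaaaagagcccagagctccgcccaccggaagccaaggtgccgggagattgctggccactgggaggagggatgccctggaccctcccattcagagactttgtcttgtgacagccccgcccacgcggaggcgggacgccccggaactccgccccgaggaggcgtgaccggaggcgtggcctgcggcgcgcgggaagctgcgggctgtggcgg

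The Mcm6 window held 3 matches to TTTNGCGC and 2 to CCAAT, and the Mcm5 window 2 and 3. In the Ccne1 and Chaf1b windows there were 0 of either, which says only that these letters are not in these windows. RefSeq gave a window for 28 of the 34 genes, taken at the first start listed. Of these, 8 held TTTNGCGC on either strand (28.6%), against 1.38% of the 27025 promoters of the table. They were Cdt1, Dtl, Mcm3, Mcm5, Mcm6, Mcm7, Orc1 and Pola1. Of 11 genes with a window and the exact order of libraries given above, 5 held TTTNGCGC and 6 did not. Of the 17 with another order 3 did (Cdt1, Dtl and Orc1). A link between the motif and that order was not tested. The looser TTTNNCGC, which takes in the matches of TTTNGCGC, was in 12 of 28 windows (42.9%), against 5.27% of all promoters, and CCAAT in 18 of 28 (64.3%), against 37.9%. The windows of these genes were also richer in G and C, with a median of 58.0% and 21.5 CG pairs, against 52.7% and 7.0 for all promoters. Both E2F-like motifs contain CG, and the part of base content in these shares was not tested.

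Licensing factors were low to moderate in level. Cdt1, which loads the MCM ring together with Cdc6, averaged 36.9 ± 10.8 TPM in Ts1Cje and 25.2 ± 9.61 TPM in wild-type libraries (SD, n = 3 each). Its counts scaled to 38.8, 47.9 and 28.9 CPM in Ts1Cje replicates 1 to 3, against 19.6, 22.2 and 37.2 CPM in wild-type replicates 1 to 3. The genotypes overlapped, since wild-type replicate 3 was above Ts1Cje replicate 3, and the log2 fold change was 0.55 ± 0.29 (SE; adjusted p = 0.792 by edgeR). Orc1, the largest subunit of the origin recognition complex, had 8.402, 5.88 and 6.24 CPM in Ts1Cje replicates 1 to 3, against 1.25, 3.48 and 6.01 CPM in wild-type replicates 1 to 3. Only wild-type replicate 3 reached the Ts1Cje range, and it stood between the lower Ts1Cje libraries; the log2 fold change was 0.93 ± 0.53 (SE; adjusted p = 0.792). Cdc6, the ATPase that bridges the complex and the ring, had a log2 fold change of 0.46 ± 0.61 (SE; adjusted p = 0.893). Orc6, the smallest subunit of the complex, had 32.5, 24.7 and 16.8 CPM in Ts1Cje replicates 1 to 3, against 16.7, 24.8 and 28.97 CPM in wild-type replicates 1 to 3. Wild-type replicates 2 and 3 were above Ts1Cje replicates 2 and 3, and the log2 fold change was 0.071 ± 0.30 (SE; adjusted p = 0.970). Orc1 and Orc6 did not keep a fixed proportion. The ratio of Orc6 to Orc1 in TPM was 5.44, 5.92 and 3.796 in Ts1Cje replicates 1 to 3, against 18.7, 10.1 and 6.79 in wild-type replicates 1 to 3, and each Ts1Cje value was below each wild-type value. It is one of 8 partner ratios picked after the levels were seen, and no share over other gene pairs was computed. Of the rest, only Prim1 to Prim2 was apart, with Ts1Cje above. The genotypes overlapped for Mcm6 to Mcm2, Mcm5 to Mcm6, Rrm2 to Rrm1, Ccne1 to Ccne2, Cdt1 to Gmnn and Chaf1b to Chaf1a.

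The 6 subunits of the MCM ring shared their highest, second and lowest library. Mcm6, the most abundant of them, had 209, 161 and 114 CPM in Ts1Cje replicates 1 to 3, against 70.97, 143 and 196 CPM in wild-type replicates 1 to 3. Mcm3 had 116, 95.9 and 67.9 CPM in Ts1Cje replicates 1 to 3, against 35.8, 76.6 and 104 CPM in wild-type replicates 1 to 3, and Mcm2 had 73.4, 65.4 and 56.3 CPM in Ts1Cje replicates 1 to 3, against 24.8, 52.7 and 70.9 CPM in wild-type replicates 1 to 3. In each of these the highest library was Ts1Cje replicate 1 and the lowest wild-type replicate 1, with wild-type replicate 3 second. Mcm5, the subunit with the widest range, had 94.4, 66.6 and 41.6 CPM in Ts1Cje replicates 1 to 3, against 15.5, 56.2 and 80.7 CPM in wild-type replicates 1 to 3. Mcm7 had 54.4, 46.7 and 34.5 CPM in Ts1Cje replicates 1 to 3, against 13.5, 37.7 and 53.8 CPM in wild-type replicates 1 to 3. The low level in wild-type replicate 1 was not of equal depth, since the highest library was 6.08 times the lowest for Mcm5 and 2.94 times for Mcm6. The log2 fold changes of the 6 subunits were 0.24 to 0.44, with adjusted p of 0.831 to 0.910 by edgeR. Without wild-type replicate 1 they were -0.081 for Mcm6 to 0.17 for Mcm4. Per length the subunits are not at one level: mean TPM over the 6 libraries was 96.2 for Mcm6, 66.4 for Mcm3, 58.4 for Mcm4, 44.8 for Mcm5, 27.3 for Mcm7 and 24.7 for Mcm2, although the proteins form a ring with 1 copy of each. Mcm6 was first, and Mcm5 came next after Mcm3 and Mcm4, in all 6 libraries. Mcm3 and Mcm4 changed places in wild-type replicate 1, and Mcm2 and Mcm7 in wild-type replicate 1 and Ts1Cje replicate 3. Summed over the 6 subunits the level was 468, 366 and 234 TPM in Ts1Cje replicates 1 to 3 and 132, 287 and 419 TPM in wild-type replicates 1 to 3.

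Chromosome 16 holds 3 of the genes, and they differ in copy number. Chaf1b, a subunit of the histone chaperone that places new nucleosomes behind the fork, lies at chr16:93883901-93906115 in mm10, inside the segment that Ts1Cje carries in extra copy. Mcm4 (chr16:15623897-15637400) and Cdc45 (chr16:18780447-18811987) lie before the segment and are present in the usual number of copies. Chaf1b had 49.9, 50.3 and 35.5 CPM in Ts1Cje replicates 1 to 3, against 12.5, 20.9 and 38.96 CPM in wild-type replicates 1 to 3. Ts1Cje replicates 1 and 2 were above all wild-type libraries, but wild-type replicate 3 was above Ts1Cje replicate 3, so the genotypes overlapped. The log2 fold change was 0.91 ± 0.39 (SE; unadjusted p = 0.0494, adjusted p = 0.792 by edgeR), and without wild-type replicate 1 it was 0.59 ± 0.30 (SE; adjusted p = 0.989). Without wild-type replicate 3 it was 1.44 ± 0.29 (SE; adjusted p = 0.130). Mcm4 had 105, 78.98 and 55.8 CPM in Ts1Cje replicates 1 to 3, against 36.2, 52.2 and 89.01 CPM in wild-type replicates 1 to 3, with a log2 fold change of 0.44 ± 0.36 (SE; adjusted p = 0.831). Cdc45, the helicase cofactor, had 15.2, 12.7 and 6.92 CPM in Ts1Cje replicates 1 to 3, against 3.44, 8.37 and 14.9 CPM in wild-type replicates 1 to 3, with 0.38 ± 0.52 (SE; adjusted p = 0.897). Without wild-type replicate 1 the values were 0.17 ± 0.32 for Mcm4 and -0.012 ± 0.40 for Cdc45 (SE). The difference between Chaf1b and the other genes on this chromosome was not tested.

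Of the wider set of replication genes, Donson also lies in the extra segment, at chr16:91676808-91688770. It encodes a factor that helps assemble the active helicase. It had 26.1, 15.5 and 14.4 CPM in Ts1Cje replicates 1 to 3, against 8.46, 11.4 and 12.8 CPM in wild-type replicates 1 to 3, and all Ts1Cje libraries were above all wild-type libraries, with a log2 fold change of 0.78 ± 0.29 (SE; unadjusted p = 0.0309, adjusted p = 0.792 by edgeR). Without Ts1Cje replicate 1 the Donson value was 0.46. In GENCODE M21, 3.29% of its exon length is overlapped by Son on the opposite strand and 9.17% by Atp5o on its own strand, and the part of reads from these neighbours was not tested.

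Set against the other replication genes of the same library, 27 genes overlapped between the genotypes, 5 had Ts1Cje above and 2 had Ts1Cje below. For this description, chosen after the levels were seen, the median centred log2 level of the other 33 genes was taken from each gene in each library. Chaf1b was then at 0.10, 0.38 and 0.38 in Ts1Cje replicates 1 to 3, against -0.20, -0.53 and -0.12 in wild-type replicates 1 to 3. Ccne1 was at 0.69, 0.43 and 0.61 in Ts1Cje replicates 1 to 3, against -0.39, -1.15 and -0.18 in wild-type replicates 1 to 3. Ung was at 0.12, 0.52 and 0.71 in Ts1Cje replicates 1 to 3, against -0.88, -0.46 and 0.019 in wild-type replicates 1 to 3 and Orc1 at 0.31, 0.070 and 0.66 in Ts1Cje replicates 1 to 3, against -0.67, -0.33 and -0.033 in wild-type replicates 1 to 3. Mcm6 and Prim2 had Ts1Cje below. Mcm6 was at -0.023, -0.11 and -0.11 in Ts1Cje replicates 1 to 3, against 0.14, 0.084 and 0.057 in wild-type replicates 1 to 3. Prim2 was at -0.20, -0.33 and -0.14 in Ts1Cje replicates 1 to 3, against 0.36, 0.36 and -0.033 in wild-type replicates 1 to 3. The subtracted medians come from the same genes, so these values are a description with no background among other genes. In CPM, Chaf1b, Orc1, Ccne2, Mcm6 and Prim2 overlapped between the genotypes. The difference of means was 0.57 for Chaf1b, against 0.0090 for Mcm4 and 0.066 for Cdc45 on the same scale. It was larger than that of Chaf1b for Ccne1 (1.15), Ung (0.88) and Orc1 (0.69), which lie outside the extra segment. Against its partner gene Chaf1a alone, Chaf1b was not apart. The TPM ratio of Chaf1b to Chaf1a was 2.83, 3.82 and 4.11 in Ts1Cje replicates 1 to 3. In wild-type replicates 1 to 3 it was 3.56, 1.92 and 2.54, so the genotypes overlapped.

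**Figure D3:**
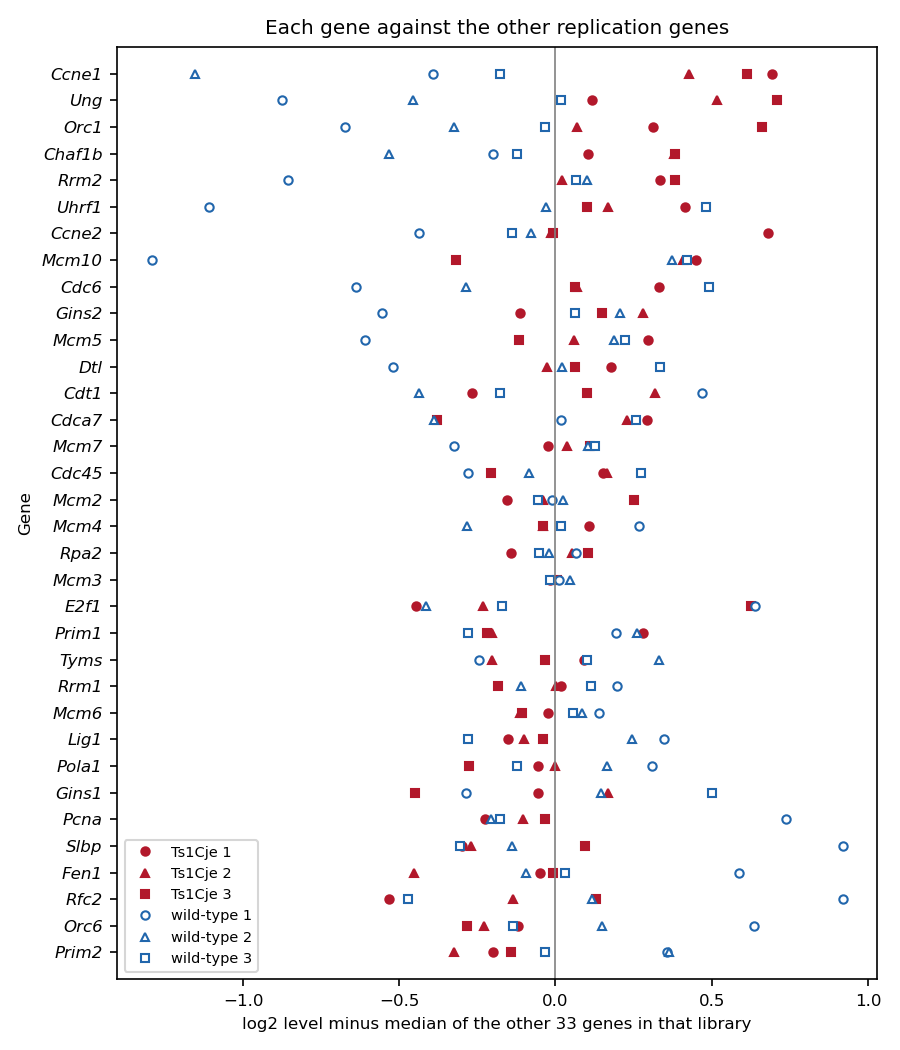
Each gene's centred log2 level minus the median of the other 33 replication genes in that library (x axis), with Ts1Cje libraries filled and wild-type libraries open, and genes ordered from the highest to the lowest difference of Ts1Cje minus wild-type. The Ts1Cje symbols lie right of all wild-type symbols for Ccne1, Ung, Orc1, Chaf1b and Ccne2, and left of them for Mcm6 and Prim2.

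Genes of G1/S control held the highest fold change. Ccne1 (ENSMUSG00000002068, chr7:38097984-38107534), which encodes cyclin E1, the partner of Cdk2 that drives entry into S phase, had 31.7, 21.9 and 17.5 CPM in Ts1Cje replicates 1 to 3, against 4.57, 5.68 and 15.8 CPM in wild-type replicates 1 to 3. The 3 Ts1Cje libraries were above the 3 wild-type libraries, with wild-type replicate 3 close to Ts1Cje replicate 3. Its log2 fold change was 1.45 ± 0.49 (SE; unadjusted p = 0.0190, adjusted p = 0.792 by edgeR) and 1.13 ± 0.46 without wild-type replicate 1 (SE; adjusted p = 0.989). Without wild-type replicate 3 it was 2.21 ± 0.32 (SE; adjusted p = 0.0949). Ccne2, the gene of cyclin E2, had 41.2, 21.2 and 15.003 CPM in Ts1Cje replicates 1 to 3, against 5.83, 15.8 and 21.3 CPM in wild-type replicates 1 to 3. Ts1Cje replicate 1 stood above the other libraries, the rest overlapped, and the log2 fold change was 0.85 ± 0.52 (SE; adjusted p = 0.807). E2f1, the activator of many replication genes, had 60.6, 57.8 and 73.6 CPM in Ts1Cje replicates 1 to 3, against 39.1, 39.9 and 66.1 CPM in wild-type replicates 1 to 3. It broke the common order, since Ts1Cje replicate 3 was its highest library, and its log2 fold change was 0.40 ± 0.23 (SE; adjusted p = 0.800). Dtl, the substrate receptor of the ubiquitin ligase that removes Cdt1 in S phase, had 0.35 ± 0.53 (SE; adjusted p = 0.908), with 16.03 to 29.7 CPM in Ts1Cje and 5.62 to 29.8 CPM in wild-type libraries.

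**Figure D4:**
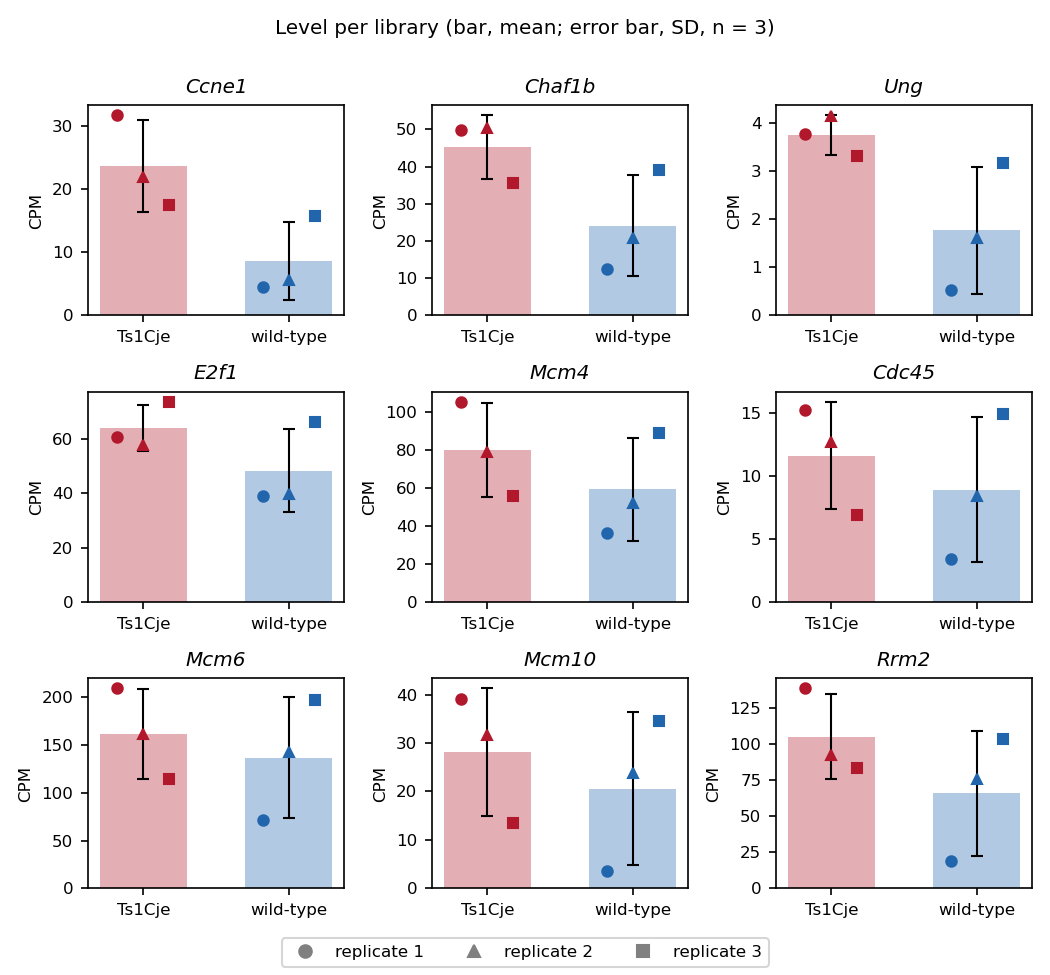
CPM in each library (symbols by replicate) for 9 genes, with the mean (bar) and SD (error bar, n = 3) of Ts1Cje left of wild-type. Ccne1 and Ung are the 2 genes in which no Ts1Cje library is as low as any wild-type library, and wild-type replicate 1 is the lowest library in every panel.

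Helicase activation genes varied widely between libraries. Mcm10, which binds the helicase as it starts to unwind, had 39.1, 31.6 and 13.4 CPM in Ts1Cje replicates 1 to 3, against 3.56, 23.7 and 34.5 CPM in wild-type replicates 1 to 3, so that the highest library was 10.99 times the lowest, the widest range of the 34 genes. Its log2 fold change of 0.44 ± 0.72 (SE; adjusted p = 0.915 by edgeR) was smaller than its SE. Gins1, a subunit of the GINS complex, had 9.497, 9.12 and 4.16 CPM in Ts1Cje replicates 1 to 3, against 2.43, 6.92 and 12.5 CPM in wild-type replicates 1 to 3. Wild-type replicate 3 was its highest library, and the log2 fold change was 0.062 ± 0.58 (SE; adjusted p = 0.986). Gins2, another subunit and the most abundant of these genes per length, had 26.1, 28.1 and 18.04 CPM in Ts1Cje replicates 1 to 3, against 5.83, 20.6 and 26.2 CPM in wild-type replicates 1 to 3, with 0.46 ± 0.49 (SE; adjusted p = 0.864). Of the Gins2 exon length 67.3% is overlapped by exons of Gse1 on the opposite strand, whose counts were 203 to 345 in Ts1Cje and 100 to 282 in wild-type libraries. No source used here gives the strand setting of the counting, so reads of Gins2 and Gse1 cannot be told apart there.

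Fork genes were the closest to even, by their median in wild-type replicate 1. Pcna, the sliding clamp that holds polymerases on DNA, had the highest level of all 34 genes, at 303 ± 76.97 TPM in Ts1Cje and 258 ± 69.6 TPM in wild-type libraries (SD, n = 3 each). It had 284, 254 and 188 CPM in Ts1Cje replicates 1 to 3, against 168, 185 and 265 CPM in wild-type replicates 1 to 3, and the highest library was 1.69 times the lowest. The genotypes overlapped, with a log2 fold change of 0.23 ± 0.23 (SE; adjusted p = 0.852 by edgeR). A processed copy on chromosome 19, Pcna-ps2, matches 781 bases of the Pcna transcript at 99.2% identity and had 39 to 54 counts in Ts1Cje and 31 to 61 counts in wild-type libraries, so how reads were split between them is uncertain. Rpa2, a subunit of the protein that coats single-stranded DNA, had 30.3, 28.5 and 20.8 CPM in Ts1Cje replicates 1 to 3, against 10.6, 21.2 and 29.04 CPM in wild-type replicates 1 to 3, with 0.39 ± 0.35 (SE; adjusted p = 0.840). Primase makes the RNA primers from Prim1 and Prim2. Prim2, its large subunit, was the 1 gene with a negative log2 fold change, -0.024 ± 0.35 (SE; adjusted p = 0.989), from 16.2, 12.2 and 9.75 CPM in Ts1Cje replicates 1 to 3, against 7.202, 15.2 and 16.4 CPM in wild-type replicates 1 to 3. The genotypes overlapped, and the sign of the Prim2 value changed with the tool. Prim1, the catalytic subunit, had 0.39 ± 0.40, Pola1, the catalytic subunit of the polymerase that extends the primers, 0.24 ± 0.36, and Lig1, the ligase that joins the fragments of the lagging strand, 0.25 ± 0.29 (SE; adjusted p of 0.860 to 0.904). The TPM ratio of Prim1 to Prim2 was 3.04, 2.404 and 2.09 in Ts1Cje replicates 1 to 3, against 1.98, 2.05 and 1.86 in wild-type replicates 1 to 3.

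The exons of Rfc2 and Fen1 overlap those of neighbouring genes. Rfc2, a subunit of the loader that opens the clamp, varied least of the 34, with 83.5, 90.5 and 76.4 CPM in Ts1Cje replicates 1 to 3, against 69.5, 83.1 and 78.6 CPM in wild-type replicates 1 to 3, and a log2 fold change of 0.11 ± 0.14 (SE; adjusted p = 0.881 by edgeR). Of its exon length 15.1% is overlapped by Lat2 on the opposite strand, an adaptor gene with 2210 to 5105 counts in Ts1Cje and 768 to 2230 counts in wild-type libraries. Fen1, the nuclease that trims flaps on the lagging strand, had the lowest level of the 34, at 1.23 ± 0.449 TPM in Ts1Cje and 1.12 ± 0.448 TPM in wild-type libraries (SD, n = 3 each), from 46, 22 and 23 counts in Ts1Cje replicates 1 to 3 and 15, 22 and 34 counts in wild-type replicates 1 to 3. Exons of the antisense gene Gm10143 overlap 78.8% of the Fen1 exon length, and those of Tmem258 5.37%. Fen1 had a log2 fold change of 0.13 ± 0.57 (SE; adjusted p = 0.972), with the genotypes overlapping. The part of these overlaps in either level was not tested.

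Genes of nucleotide supply were highest in Ts1Cje replicate 1 and second in wild-type replicate 3, apart from Ung. Ribonucleotide reductase makes deoxynucleotides from a large subunit, Rrm1, and a small one that is made mainly in S phase, Rrm2. Rrm2 had 139, 92.7 and 83.7 CPM in Ts1Cje replicates 1 to 3, against 18.8, 75.6 and 104 CPM in wild-type replicates 1 to 3, with a log2 fold change of 0.67 ± 0.53 (SE; adjusted p = 0.831 by edgeR). Rrm1 had 181, 149 and 92.6 CPM in Ts1Cje replicates 1 to 3, against 63.1, 108 and 175 CPM in wild-type replicates 1 to 3, with 0.29 ± 0.38 (SE; adjusted p = 0.892). In wild-type replicate 1 Rrm2 was lower in proportion than Rrm1. The TPM ratio of Rrm2 to Rrm1 was 3.04, 2.47 and 3.595 in Ts1Cje replicates 1 to 3, against 1.18, 2.78 and 2.36 in wild-type replicates 1 to 3, and the genotypes overlapped. Tyms, which makes thymidylate, had 0.22 ± 0.46 (SE; adjusted p = 0.935). Ung, the glycosylase that removes uracil from DNA, lies at chr5:114130386-114139323 and was low, with 3.76, 4.13 and 3.31 CPM in Ts1Cje replicates 1 to 3, against 0.526, 1.61 and 3.16 CPM in wild-type replicates 1 to 3. All Ts1Cje libraries were above all wild-type libraries, wild-type replicate 3 being close to Ts1Cje replicate 3. The log2 fold change was 1.08 ± 0.61 (SE; unadjusted p = 0.115, adjusted p = 0.792), and 0.64 ± 0.43 without wild-type replicate 1 (SE; adjusted p = 0.989).

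Among chromatin and histone genes the range was wide. Uhrf1, which brings the maintenance DNA methyltransferase to new DNA, had 71.2, 49.9 and 33.5 CPM in Ts1Cje replicates 1 to 3, against 7.61, 34.1 and 67.2 CPM in wild-type replicates 1 to 3, and its log2 fold change of 0.50 ± 0.66 (SE; adjusted p = 0.891 by edgeR) was smaller than its SE. Slbp, which binds the stem-loop of histone mRNAs, was close to even, with 77.4, 64.9 and 58.8 CPM in Ts1Cje replicates 1 to 3, against 54.8, 55.7 and 69.5 CPM in wild-type replicates 1 to 3 and 0.16 ± 0.17 (SE; adjusted p = 0.860). Cdca7, a partner of the chromatin remodeller Hells, had 0.49 ± 0.52 (SE; adjusted p = 0.864). By role, the median level in wild-type replicate 1 relative to the mean of the 6 libraries was -1.66 for nucleotide and uracil repair genes, -1.53 for helicase activation and for G1/S control, -1.21 for chromatin, -1.20 for licensing, -1.12 for the MCM ring and -0.77 for the fork.

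**Figure D5:**
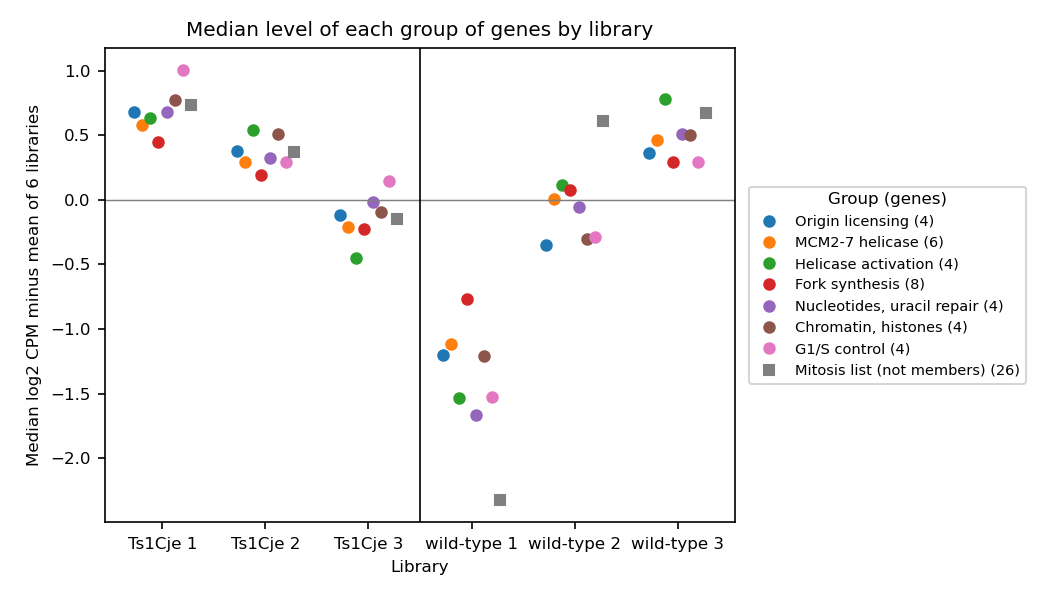
Median log2 CPM minus the mean of the 6 libraries for each role and for a list of 26 mitotic genes (y axis), by library, with Ts1Cje left of wild-type. All groups are lowest in wild-type replicate 1, where the mitotic list stands at -2.33 and the roles of the replication genes between -1.66 and -0.77.

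Other genes of the same processes were described from 5 lists of 75 genes, of which 74 were tested. The log2 fold change was above 0 for 50 and below 0 for 24 (median 0.17), and 0 passed edgeR or DESeq2. At an unadjusted p under 0.05 there were 3 higher in Ts1Cje and 0 lower, against 5.79% of all genes tested in either direction. These were Donson, Rfc3, a clamp loader subunit, with 21.2, 19.6 and 17.02 CPM in Ts1Cje replicates 1 to 3, against 13.4, 14.954 and 12.7 CPM in wild-type replicates 1 to 3 and a log2 fold change of 0.49 ± 0.18, and Shmt1, an enzyme that supplies one-carbon units to thymidylate, with 0.98 ± 0.41 (SE; adjusted p = 0.792 each by edgeR). Wild-type replicate 1 was the lowest library for 47 of the 74, against 25.8% of all genes tested and 34 of the 34 above. The lists were chosen with earlier results of these data known, so these shares are only a description. By list, 11 of 16 licensing and firing genes were positive (median 0.12), 17 of 26 fork genes (0.057), 4 of 8 nucleotide genes (0.089), 6 of 8 chromatin genes (0.28) and 12 of 16 control genes (0.23). Cdc7, the kinase that starts origins, had 0.80 ± 0.35, and Top1, which relaxes DNA ahead of the fork, 0.35 ± 0.17 (SE; adjusted p = 0.792 each). Donson, Rfc3, Cdc7 and Top1 were the 4 of 74 genes with all Ts1Cje libraries above all wild-type libraries (5.41%, against 6.38% of all genes tested). Without wild-type replicate 1 the Cdc7 value was 0.49, and without wild-type replicate 2 the Top1 value was 0.20. The nucleoside kinase Dck had 0.44 ± 0.31, the histone chaperones Nasp and Asf1b 0.42 ± 0.42 and 0.52 ± 0.57, and E2f6, a repressor of the E2F family, 0.42 ± 0.24 (SE; adjusted p of 0.793 to 0.868). Without wild-type replicate 1 the values were 0.17 for Dck, 0.081 for Nasp and 0.049 for Asf1b, and without wild-type replicate 2 that of E2f6 was 0.26.

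Genes that hold replication back, and the cyclin gene Ccna2, which does not, did not pass either. Gmnn, whose product geminin binds and blocks Cdt1, had 60.6, 42.5 and 31.8 CPM in Ts1Cje replicates 1 to 3, against 20.8, 42.4 and 56.6 CPM in wild-type replicates 1 to 3, and a log2 fold change of 0.17 ± 0.38 (SE; adjusted p = 0.937 by edgeR). Its order of libraries was that of the replication genes, with Ts1Cje replicate 2 and wild-type replicate 2 nearly equal. The TPM ratio of Cdt1 to Gmnn was 0.299, 0.526 and 0.424 in Ts1Cje replicates 1 to 3, against 0.440, 0.244 and 0.306 in wild-type replicates 1 to 3, with overlap. Cdkn1a, the gene of the cyclin kinase inhibitor p21, had 421, 445 and 492 CPM in Ts1Cje replicates 1 to 3, against 667, 446 and 363 CPM in wild-type replicates 1 to 3. Wild-type replicate 1 was thus its highest library, and the log2 fold change was -0.12 ± 0.23 (SE; adjusted p = 0.928). Cdkn1b, the gene of the related inhibitor p27, had 2.54, 1.64 and 2.63 CPM in Ts1Cje replicates 1 to 3, against 4.94, 5.72 and 2.104 CPM in wild-type replicates 1 to 3, with -0.90 ± 0.46 (SE; adjusted p = 0.792); wild-type replicates 1 and 2 were above the other 4 libraries. Ccna2, the cyclin of S phase and G2, had 81.3, 71.5 and 39.7 CPM in Ts1Cje replicates 1 to 3, against 8.62, 80.5 and 78.98 CPM in wild-type replicates 1 to 3, with 0.20 ± 0.70 (SE; adjusted p = 0.964).

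Mitotic genes shared the low library, and of the other libraries wild-type replicate 2 stood furthest from its place in the replication genes. The log2 fold change was above 0 for 24 of 26 (median 0.24), 0 passed edgeR or DESeq2, and by edgeR 0 had an unadjusted p under 0.05. Their median level was 0.73, 0.37 and -0.15 in Ts1Cje replicates 1 to 3 and -2.33, 0.61 and 0.67 in wild-type replicates 1 to 3. Wild-type replicate 1 was the lowest for 25 of the 26, against 25.8% of all genes tested. Wild-type replicate 2 stood at 0.61 in the mitotic list and at -0.051 in the replication genes, a description that was not tested. Mki67, a marker of cycling cells, had 111, 90.5 and 54.6 CPM in Ts1Cje replicates 1 to 3, against 16.5, 89.5 and 116 CPM in wild-type replicates 1 to 3, with a log2 fold change of 0.21 ± 0.61 (SE; adjusted p = 0.953). Cdk1, the mitotic kinase, had 0.29 ± 0.34 (SE; adjusted p = 0.878). Cenpa, the centromeric histone, was the exception, with wild-type replicate 1 the highest library at 121 CPM, against 55.8 to 87.5 CPM in Ts1Cje and 78.7 to 79.3 CPM in the other wild-type libraries, and -0.43 ± 0.24 (SE; adjusted p = 0.792).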

How the data were processed

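The members and gene lists were chosen with earlier results of these data known. A SMART-seq kit made the libraries, per the labels' protocols. Tools listed in the submitters' processing notes are featureCounts 1.6.3, HISAT2 2.1.0, Trimmomatic 0.38 and FastQC 0.11.7, with build mm10; strand and multi-mapping settings are not given. The authors deposited raw counts per gene and TPM. Counts divided by TPM gave the same gene length in all libraries, within 1%, for 10036 of 10036 genes with at least 50 counts in each library. No column of another sample was in the tables.

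Counts were tested with edgeR 4.0.16 in R 4.3.3 by quasi-likelihood, with genotype as the only term, TMM factors and filterByExpr (count minimum 10, total minimum 15). P-values were adjusted by Benjamini-Hochberg across all 13821 genes, and calls needed an adjusted p under 0.05. SE is the log2 fold change divided by the root of F. Log2 CPM used a prior count of 2. Also tried were upper-quartile and RLE factors, TMM without chromosome 16, no filter, a count minimum of 50, DESeq2 1.42.0, limma 3.58.1 (voom, or log2 TPM with a pseudocount of 1 or 0.1, with or without a TPM minimum of 1 in 3 libraries), a block for replicate number, and leaving out each library. The tests were checked on simulated data. Values in every library are given for genes whose groups do not overlap, with an unadjusted p under 0.05, with the 4 lowest fold changes, on chromosome 16, in the MCM ring, and for the most abundant and the smallest p of each role; some others were added after their values were seen. Of the other lists, the 2 smallest p, Mki67, Cdkn1a, Cdkn1b, Gmnn and Ccna2 are named.

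Gene positions were identical in GENCODE M21 for 34 of 34 members. Exon overlaps are from GENCODE M21, copies from BLAST 2.17.0 (at least 500 bases at 95% identity) and promoters from RefSeq (GRCm38.p6). No 2 libraries were alike within counting noise.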

Additional observations from a re-analysis of the deposited data

How the results depend on the processing

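Under every alternative run, 0 of the 34 genes passed the adjusted threshold. The count of positive genes was 32 to 34 with all 6 libraries (32 with the stricter filter, which tested fewer genes), and 20 to 34 with a library left out; the 20 came without wild-type replicate 1, and the cause was not tested. The median log2 fold change was 0.36 to 0.50 with all 6 libraries and 0.033 to 0.79 with a library left out. Genes called over the whole table were 3 with no filter, 56 with DESeq2, 0 with the replicate block and 1 to 6 with a library left out; they were 1 under the others. Same-numbered libraries had correlations of -0.18, -0.045 and -0.061 over all genes between their deviations from the group means. Over the 34 genes the correlations were -0.44, 0.037 and -0.40. With so few libraries these values cannot tell whether a replicate number marks a shared batch. With the replicate block the median of the 34 genes was 0.50, 34 were positive and 1 had an unadjusted p under 0.05. Prim2 turned positive with limma-voom (0.033), with limma on log2(TPM + 1), with or without the minimum (0.015), on log2(TPM + 0.1) (0.026) and with the replicate block (0.020). With RLE and with upper-quartile factors, 1 of the 34 genes had an unadjusted p under 0.05. With a library left out, log2 fold changes that changed sign ran from -0.18 to 0.56 for Tyms, -0.36 to 0.70 for Gins1, -0.17 to 0.47 for Fen1, -0.18 to 0.28 for Orc6, -0.023 to 0.63 for Prim1, -0.27 to 0.69 for Mki67, -0.15 to 0.51 for Gmnn, -0.32 to 0.54 for Ccna2, -0.32 to 0.19 for Prim2, -0.029 to 0.91 for Mcm5, -0.081 to 0.60 for Mcm6, -0.026 to 0.82 for Mcm7, -0.064 to 1.04 for Mcm10, -0.013 to 0.72 for Rrm1, -0.012 to 0.98 for Cdc45, -0.076 to 0.98 for Dtl, -0.037 to 0.48 for Pola1, -0.015 to 0.40 for Lig1, -0.040 to 0.56 for Cdk1 and -0.29 to 0.15 for Cdkn1a. Another 28 of the 50 named genes kept their sign and moved by over 1.5 times, over 0.049 to 0.98 for Asf1b, 1.13 to 2.21 for Ccne1, 0.34 to 1.25 for Ccne2, 0.012 to 1.33 for Cdc6, 0.49 to 1.08 for Cdc7, 0.16 to 1.14 for Cdca7, 0.36 to 0.89 for Cdt1, -0.64 to -0.21 for Cenpa, 0.59 to 1.44 for Chaf1b, 0.17 to 0.76 for Dck, 0.46 to 0.93 for Donson, 0.26 to 0.70 for E2f1, 0.26 to 0.71 for E2f6, 0.031 to 0.86 for Gins2, 0.064 to 0.75 for Mcm2, 0.035 to 0.73 for Mcm3, 0.17 to 0.86 for Mcm4, 0.081 to 0.75 for Nasp, 0.52 to 1.53 for Orc1, 0.096 to 0.46 for Pcna, 0.037 to 0.17 for Rfc2, 0.068 to 0.74 for Rpa2, 0.22 to 1.16 for Rrm2, 0.67 to 1.48 for Shmt1, 0.047 to 0.28 for Slbp, 0.20 to 0.45 for Top1, 0.015 to 1.31 for Uhrf1 and 0.64 to 1.80 for Ung. In TPM, chosen after seeing the data, Ts1Cje replicate 1 was the highest library for 27 genes. Genes with few counts, such as Fen1 and Ung, limit precision.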

Other observations

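Processed copies elsewhere in the genome were found for 5 of the 34 genes. Gm5487, a copy of Mcm7 on chromosome 16, is 97.7% identical over 2157 bases and had 1, 4 and 5 counts in Ts1Cje replicates 1 to 3, against 5, 16 and 2 counts in wild-type replicates 1 to 3. Gm5648, a copy of Uhrf1 on chromosome X, is 98.3% identical over 1590 bases and had 6 to 10 counts in Ts1Cje and 0 to 7 counts in wild-type libraries. The copies of Cdc6 and Slbp had at most 1 count in any library, and that of Pcna is described above. Exons of another gene overlapped those of 10 of the 34 genes, by over 10% of the exon length for 5 of them, which were Gins2, Fen1, Ccne2, Rfc2 and Orc1.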
